A study of Sus scrofa with 12 samples.

Results

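Of 17350 open chromatin regions that lay within 2 kb of an end of a protein-coding gene in pig longissimus dorsi muscle and held at least 100 reads, 610 differed between Duroc and Luchuan boars by a log2 ratio of 0.8 or more, a fold of 1.74. Duroc had the higher count at 423 of these regions and Luchuan at 187. The regions were chosen by this ratio, so the ratios of the members are given as descriptions and carry no test. The Duroc members included 10 of the 162 tested regions of a sarcomere gene list (6.17%, against 2.44% of all tested regions). They lay at 9 genes (ANKRD1, LDB3, MYBPH, MYH1, MYL1, MYL2, MYOZ3, TPM1 and XIRP2). Regions at the muscle creatine kinase gene CKM and the lactate dehydrogenase gene LDHA were also Duroc members. The Luchuan members included regions at PDK4, PFKFB3, GLUL, G0S2, TXNIP, FKBP5 and FOXO1, genes of fuel use and of the glucocorticoid response. The glucocorticoid list had 7 Luchuan members among 79 regions (8.86%, against 1.08% of all tested regions). The glucose and amino acid list had 8 Duroc and 9 Luchuan members among 148 (5.41% and 6.08%). These lists were chosen with earlier results of these data known.

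ATAC-seq, which cuts accessible DNA with a transposase and counts the sequenced fragments, was carried out on the longissimus dorsi, the long muscle of the back, of 3 Duroc and 3 Luchuan males aged 180 days. Duroc is a lean and Luchuan an obese pig, and both were raised on the same feeding regime and fasted overnight before slaughter. The matching RNA-seq libraries were not used here. The deposited table has 1 read count per region and breed with no value for single boars, so animal-to-animal spread is unknown and every interval below covers counting error only. Reads carry no molecular identifiers and are not independent molecules.

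Chromatin near a transcription start site opens when transcription factors and the transcription machinery displace nucleosomes, and such promoter regions are open in most tissues. Open regions a little farther from the start, and those at the far end of a gene, are more often enhancers, which differ more between cell types and physiological states. In skeletal muscle, MyoD and MEF2 family factors bind the promoters and enhancers of contractile genes, while the glucocorticoid receptor and FOXO factors act at genes that shift the muscle from glucose to fat as fuel.

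The members were found among 136586 merged regions of chromosomes 1 to 18, which held 20275757 Duroc and 13460021 Luchuan reads. After 1 was added to each count, Luchuan counts were multiplied by 1.51, the ratio of the summed reads of both breeds, and the log2 ratio of Luchuan to Duroc was taken, so that a positive ratio means more reads in Luchuan. A member also had to hold more than 5 reads in the lower breed, a condition that all 17350 regions met. At this ratio, 2.44% of the tested regions were higher in Duroc and 1.08% were higher in Luchuan. Among the 50932 regions with at least 100 reads that lay farther than 2 kb from a gene end, the shares were 8.19% and 3.31%. Duroc took 69.3% of the members (95% Wilson interval 65.6% to 72.9%, over regions). The limit of 100 reads applied to unscaled counts, so a region higher in Luchuan needed more scaled signal to reach it. At 50 reads or more the Duroc share was 57.9% and at 200 or more 71.3%. Regions that the authors labelled as found in Duroc alone were 9.98% of the tested regions, and those in Luchuan alone 2.84%. The parts that the limit and this imbalance of labels have in the share were not tested. The median ratio was 0.04 over the tested regions at gene ends and -0.05 over those farther away.

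Each region is named here by the protein-coding gene whose end was nearest to its midpoint, 554 genes in all, of which 390 were near Duroc members, 165 near Luchuan members and 1, LOC100152306, near both. A nearest gene is a position and not a shown target, and 54 Duroc and 10 Luchuan members lay within 2 kb of more than 1 gene. The gene table gave no strand and no exons, so the start and the finish of a gene could not be told apart, and ends are called lower or upper by coordinate. Coordinates are those of Sscrofa11.1, a genome assembled from a Duroc pig.

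Markers of the tissue were checked first. All 20 skeletal muscle fiber markers had open regions at their ends, with 515 to 4989 Duroc reads per gene and a median of 1705.5, against 352 to 3700 scaled Luchuan reads and a median of 1601. In contrast, 6 of 11 adipocyte markers, ADIPOQ, LEP, FABP4 and PPARG among them, and 9 of 14 endothelial markers had no region at an end, as did 8 of 20 immune, 3 of 15 fibroblast, 3 of 12 smooth muscle and pericyte and 2 of 8 nerve markers. The summed reads of the fiber markers were 42493 in Duroc and 36404 in Luchuan after scaling, a log2 ratio of -0.22, and those of the fibroblast markers were 1781 and 2567, a log2 ratio of 0.53. PRRX1, whose 2 regions are members, gave 515 and 1048 of the fibroblast sums, and COL1A1, DCN, FBLN1 and PDGFRA were higher in Duroc. The other marker sums had log2 ratios between -0.03 and 0.19. In a whole tissue, fewer cells of a type and less accessibility per cell cannot be told apart, and the part that these marker levels have in the members below was not tested.

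The members were ranked by the bound of their 95% counting interval that lay closer to 0, called the near bound. In Duroc the first 6 named genes in that order, LOC symbols left aside, held no sarcomere gene and were MYO6, MAPKAP1, PROM1, TTC23L, CENPO and CBLN3. MYO6 encodes a myosin that walks toward the minus end of actin, and its region at chr1:89992373-89992734 held 191 Duroc and 16 Luchuan reads, a ratio of -2.91 (95% interval -3.82 to -2.25). The region at the other end of MYO6, 144.9 kb away, held 639 and 426 reads, a ratio of 0.01. MAPKAP1, a subunit of mTOR complex 2, had 414 Duroc and 50 Luchuan reads inside the gene at chr1:266097678-266098243, a ratio of -2.43 (-2.91 to -2.03), while 8 other regions along the gene had ratios from -0.40 to 0.49. PROM1 encodes the membrane glycoprotein CD133. Its region had 337 and 40 reads, with a ratio of -2.45 (-2.99 to -2.01). CENPO, a centromere protein gene, had 270 and 33 reads at a site also within 2 kb of the adenylate cyclase gene ADCY3, with a ratio of -2.40 (-3.01 to -1.92). The other open regions of these 4 genes with at least 100 reads had ratios between -0.47 and 0.49.

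Similar ratios were found at 8 more Duroc genes, TTC23L (170 and 18 reads, -2.58), CBLN3 (149 and 16, -2.55), NME5 (127 and 13, -2.60), ADH5 (206 and 25, -2.40), FUT2 (375 and 52, -2.24), PM20D1 (349 and 48, -2.25), SAXO2 (187 and 26, -2.21) and UCP2 (220 and 31, -2.20). Beside the TTC23L and UCP2 members lay deeper regions at the same end, with ratios of 0.12 and -0.33. ADH5 removes formaldehyde, FUT2 adds fucose to secreted glycans, PM20D1 joins fatty acids to amino acids, and UCP2 is a mitochondrial carrier. The lowest ratio of any member, -5.21 (-6.88 to -4.29), was at LOC100513601, with 388 Duroc and 6 Luchuan reads, at chr7:22888505-22889196. That region lies inside the annotated span of SLA-1 (chr7:22824137-22920154), a class I gene of the pig major histocompatibility complex, which presents peptides to T cells. This long span also holds an end of LOC100513601, and whether it covers 1 gene was not checked. The Duroc member lies 64.71 kb from the lower end of SLA-1. At that end Luchuan had the higher count, with 28 Duroc and 148 Luchuan reads and a ratio of 2.95 (2.40 to 3.63). Another region between them had 82 and 36 reads and a ratio of -0.57, so this stretch held members of both directions. Reads of both breeds were mapped to a Duroc assembly, and the part that this has in these counts was not tested.

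In Luchuan the largest ratio of all members was at CD163L1, a scavenger receptor gene of the CD163 family, with 19 Duroc and 174 Luchuan reads at chr5:63487417-63487924 and a ratio of 3.72 (3.10 to 4.55). After SLA-1 followed PDK4, with details below, and GPX8, which encodes a peroxidase of the endoplasmic reticulum, with 47 and 151 reads and a ratio of 2.25 (1.79 to 2.78). KANK4 had 24 and 83 reads (2.34), SURF6, a nucleolar protein gene, had 34 and 105 (2.19), and SCYL2 had 98 and 255 (1.96). Apart from PFKFB3, described below, the other genes with the largest near bounds were PGM5, a phosphoglucomutase relative found at cell junctions, with 62 and 130 reads (1.65), CDK20, with 63 and 122 (1.53), LRRC3B, with 140 and 239 (1.36), and the chloride channel gene CFTR, with 153 and 268 (1.40). LRRC3B and CFTR each had a second member beside the first, with ratios of 1.52 and 1.25, and the 4 regions of LRRC3B with its margins of 5 kb were all higher in Luchuan, from 1.36 to 2.27.

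**Figure D1:**
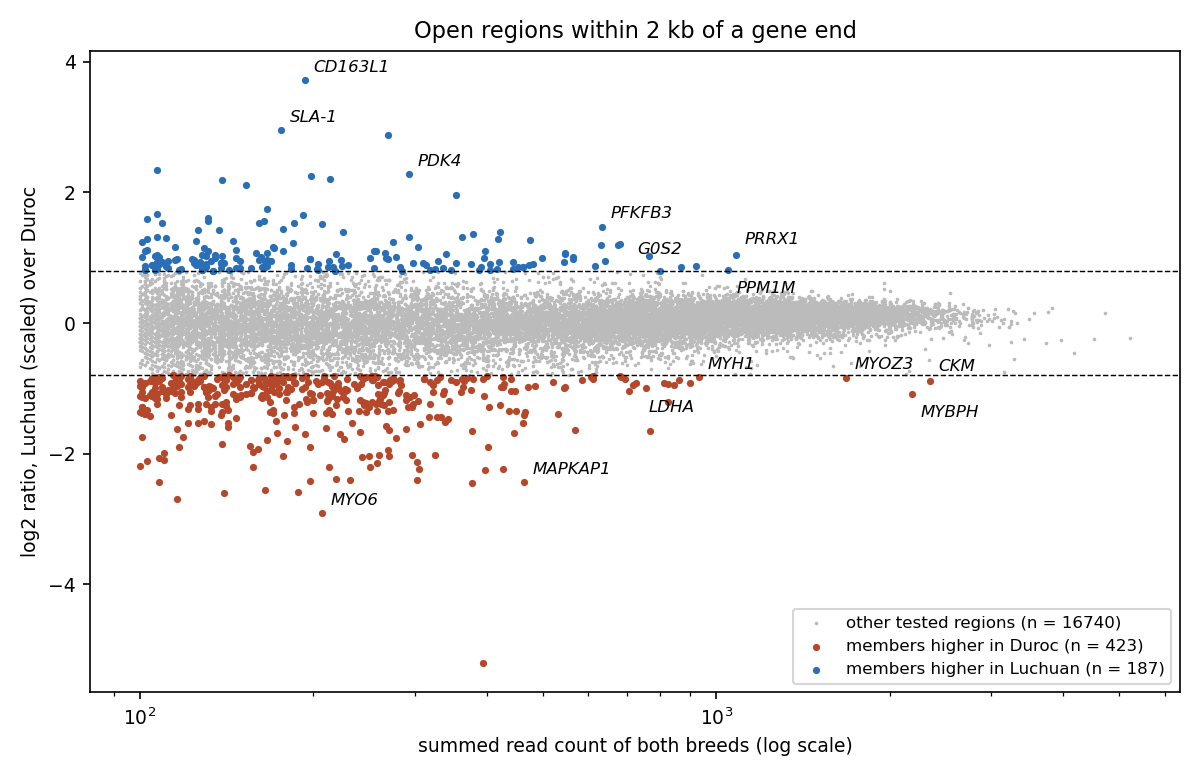
Each point is 1 open region within 2 kb of a gene end; the x axis is its summed read count of both breeds on a log scale and the y axis its log2 ratio of scaled Luchuan to Duroc reads. The 423 Duroc members lie below and the 187 Luchuan members above the dashed lines at 0.8, mostly at low counts, with CKM, MYBPH and MYOZ3 the deepest, and the unlabelled lowest point is LOC100513601.

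The sarcomere list had 162 tested regions, of which 10 (6.17%) were Duroc members and 1 (0.617%) a Luchuan member, against 2.44% and 1.08% of all tested regions. Its median ratio was -0.16, and 124 of the 162 regions were below 0. The deepest member of all was beside CKM, a gene of the metabolic list that regenerates ATP from phosphocreatine, at chr6:51701751-51703366 with 1731 Duroc and 619 Luchuan reads and a ratio of -0.89 (-1.03 to -0.76). MYBPH, a myosin-binding protein of the thick filament, followed with 1669 and 520 reads at chr9:113871159-113872921 and a ratio of -1.09 (-1.24 to -0.95). MYOZ3, which ties calcineurin to the Z-disc, had 1226 and 456 reads at chr2:151650583-151652328 and a ratio of -0.83 (-0.99 to -0.68). Of these 3, MYBPH alone had its whole interval past 0.8.

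Other contractile members were shallower. MYH1, the fast IIx myosin heavy chain, had 680 and 253 reads (-0.83), and MYL1, the fast alkali light chain, had 317 and 106 (-0.98). Tropomyosin, which covers the myosin sites on actin, had 191 and 49 reads at its gene TPM1 (-1.35), and the slow light chain MYL2 had 134 and 34 (-1.36). Of the Z-disc and stretch-linked genes, LDB3 had 256 and 79 reads (-1.09) and ANKRD1 had 173 and 52 (-1.12), while the actin-binding XIRP2 had 2 members, with 80 and 26 (-0.99) and 187 and 67 (-0.88). NEBL, the nebulin relative of the heart, went the other way, with 70 and 91 reads and a ratio of 0.96 (0.50 to 1.44). It was the only Luchuan member of this list. MYH1, MYL1, LDB3 and ANKRD1 also had a deeper region at the same end, with ratios of -0.16, -0.74, -0.28 and -0.54.

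The calcium and excitation list had 77 tested regions and a median ratio of -0.14, with 3 Duroc members (3.90%, against 2.44% of all tested regions) and none from Luchuan (against 1.08%). PVALB, the calcium buffer of fast fibers, had 270 Duroc and 99 Luchuan reads 20.5 bases from its lower end (-0.85). CLCN1, the chloride channel that steadies the fiber membrane, had 141 and 53 (-0.80) at a site also near FAM131B, and JPH2, which holds the tubules against the reticulum, had 131 and 49 (-0.81). With a pseudocount of 5 the ratios of CLCN1 and JPH2 were both -0.74, short of 0.8. A deeper region at the same end had -0.26 at PVALB, -0.54 at CLCN1 and -0.26 at JPH2. In the muscle fiber marker list the Duroc members were regions of CKM, MYH1, MYL1 and PVALB, 5 of 81 regions (6.17%, against 2.44% of all tested regions), and its median ratio was -0.22. These same regions also count in the sarcomere list (MYH1, MYL1), the calcium list (PVALB) and the metabolic list (CKM). Among myogenic factors, MEF2C, a transcription factor of muscle genes, had 3 Duroc members in a row at its lower end, with 100 and 26 reads (-1.31), 125 and 43 (-0.93) and 143 and 35 (-1.41). The first 2 of them nearly adjoin, at chr2:96120530-96120817 and chr2:96120824-96121122. PAX3, a factor of muscle precursor cells, had 1 Luchuan member with 214 and 266 reads (0.90), and the list of 60 regions had a median of -0.01. Its Duroc share, all from MEF2C, was 5% and its Luchuan share 1.67%, against 2.44% and 1.08% of all tested regions.

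**Figure D2:**
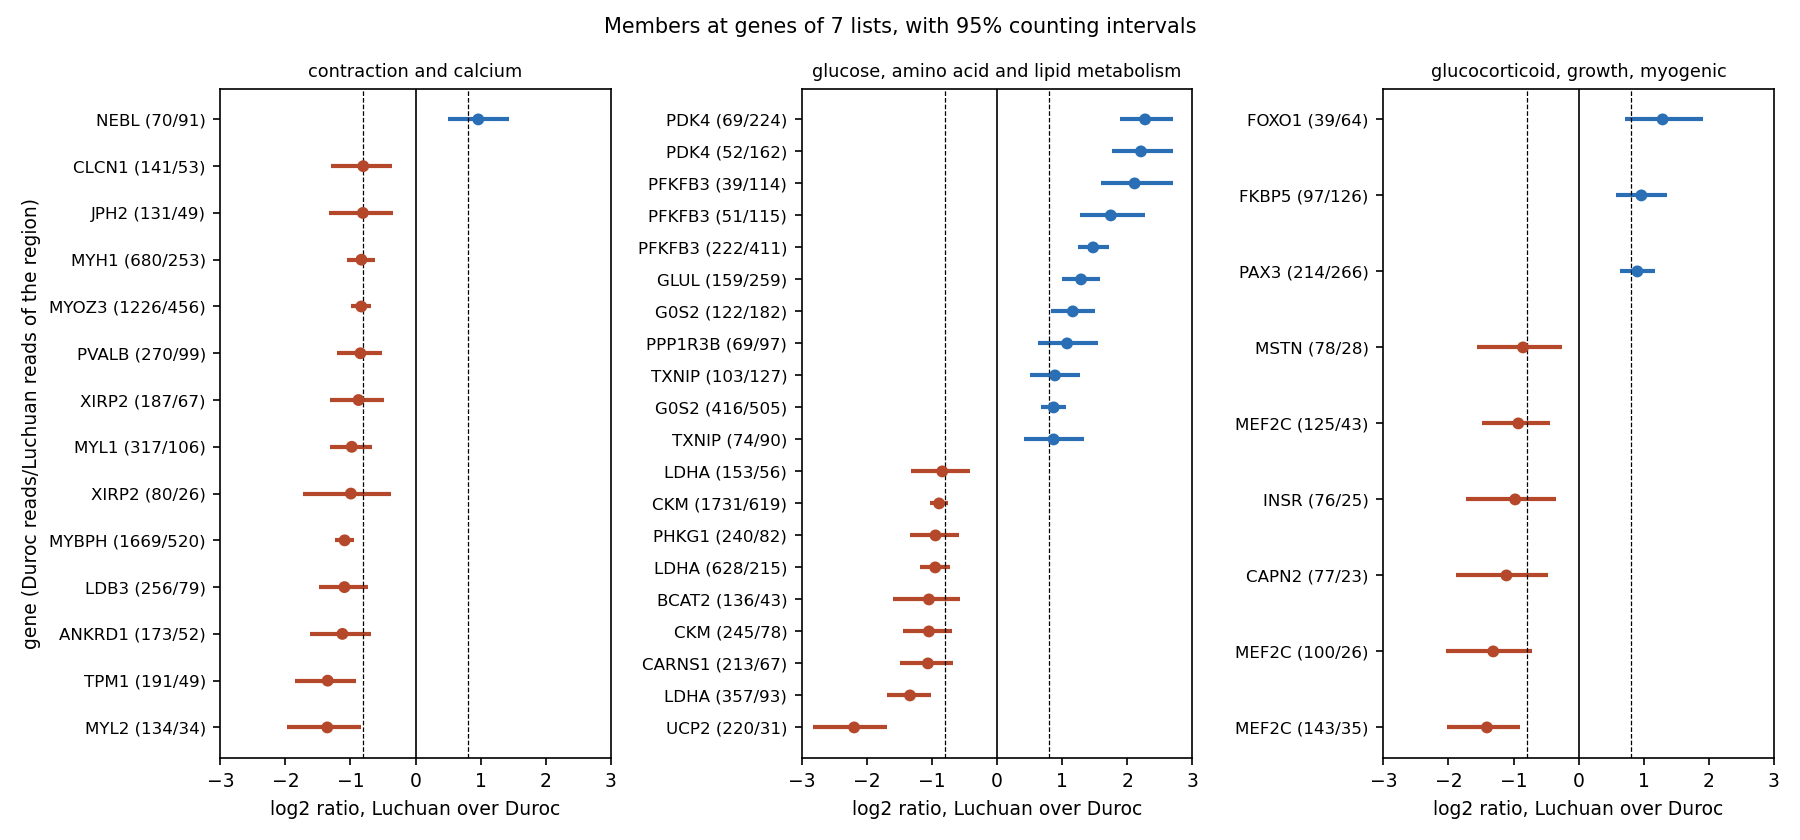
Log2 ratio of scaled Luchuan to Duroc reads (x axis) of the members at genes of 7 lists, with 95% counting intervals as bars and the Duroc and Luchuan reads in brackets beside each gene. All contraction and calcium members but NEBL lie on the Duroc side, the metabolic members lie on both sides, and the dashed lines mark 0.8.

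The list of glucose and amino acid metabolism had members on both sides, 8 in Duroc and 9 in Luchuan of 148 tested regions (5.41% and 6.08%, against 2.44% and 1.08% of all tested regions), and a median of -0.08. LDHA, which turns pyruvate into lactate, had 3 members at its lower end, with 628 and 215 reads (-0.95), 153 and 56 (-0.84) and 357 and 93 (-1.34). CKM had a second member with 245 and 78 reads (-1.05). PHKG1, the catalytic subunit of muscle phosphorylase kinase, had 240 and 82 (-0.95), BCAT2, which starts the breakdown of branched-chain amino acids, had 136 and 43 (-1.05), and CARNS1, which makes the buffer carnosine, had 213 and 67 (-1.06). The BCAT2 and CARNS1 regions were also within 2 kb of HSD17B14 and RPS6KB2. Deeper regions at the same ends of BCAT2 and CARNS1 had -0.49 and -0.61.

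Luchuan members of the same list were led by PDK4, which switches off pyruvate dehydrogenase and so spares glucose. The region at chr9:75245100-75245574, outside the gene and 1619 bases from its lower end, held 69 Duroc and 224 Luchuan reads, a ratio of 2.28 (1.89 to 2.70). A second at chr9:75246269-75246668 held 52 and 162 reads, a ratio of 2.21 (1.77 to 2.71). PFKFB3, whose product makes the activator of phosphofructokinase, had 3 members around its lower end, with 222 and 411 reads (1.48, 1.24 to 1.72), 39 and 114 (2.11) and 51 and 115 (1.75). Glutamine synthetase, GLUL, had 159 and 259 reads (1.29, 1.0 to 1.59). PPP1R3B, a glycogen-targeting subunit of protein phosphatase 1, had 69 and 97 (1.08), and TXNIP, which restrains glucose uptake, had 2 members with 103 and 127 (0.89) and 74 and 90 (0.87). A deeper region at that end of TXNIP, with 370 and 418 reads, had 0.77. The region at the other end of TXNIP, with 1551 summed reads, had -0.25.

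The glucocorticoid response list shared PDK4, GLUL, TXNIP and FOXO1 with other lists. It held 7 Luchuan members at 5 genes and no Duroc member among 79 tested regions, a Luchuan share of 8.86% against 1.08% of all tested regions, where the Duroc share was 2.44%, and its median ratio was 0.16, with 22 regions below 0. FKBP5, a co-chaperone of the glucocorticoid receptor that the receptor itself induces, had a member with 97 and 126 reads, 1659.5 bases from its upper end (0.97, 0.58 to 1.37). A deeper region at that end, with 496 and 437 reads, had 0.41. FOXO1, a transcription factor active in fasting, had 39 and 64 reads (1.29, 0.71 to 1.92). All 3 members named by SPIDR, a DNA repair scaffold, also lay within 2 kb of CEBPD, a transcription factor gene of this list, and held 281 and 360 reads (0.95), 72 and 94 (0.97) and 395 and 473 (0.85).

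In the lipid list of 88 regions G0S2, the inhibitor of adipose triglyceride lipase, had 2 Luchuan members and UCP2 the 1 Duroc member already described. The Luchuan share was 2.27% and the Duroc share 1.14%, against 1.08% and 2.44% of all tested regions. The G0S2 region at chr9:133287363-133288211 overlapped most of the short gene and held 416 and 505 reads, a ratio of 0.87 (0.68 to 1.06), and the other held 122 and 182, a ratio of 1.16. Growth and protein turnover genes had 3 Duroc members among 92 regions (3.26%, near the 2.44% of all tested regions), at the insulin receptor gene INSR (76 and 25 reads, -0.98), at the protease gene CAPN2 (77 and 23, -1.11, beside a deeper region of 659 and 418 with -0.06) and at MSTN (78 and 28, -0.85). MSTN encodes myostatin, a secreted brake on muscle growth, and its interval reached from -1.57 to -0.25. With a pseudocount of 5 the ratio of MSTN was -0.74, short of 0.8. The region at the other end of MSTN, with 846 summed reads, had 0.04. FOXO1 was the Luchuan member of that list, and the median ratio was 0.06 here and 0.03 in the lipid list.

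In the 4 remaining gene lists 0 or 1 region was a member in each direction, and the shares above 0 (0.935% to 2% of a list) lay under those of all tested regions (2.44% and 1.08%). NR1D1, a repressor of the circadian clock, was the 1 Duroc member of 50 clock regions, with 159 and 55 reads (-0.92). Immediate early and stress genes had 1 Duroc member, the small heat shock protein gene HSPB1 (128 and 45, -0.90, beside a deeper region of 1525 and 1048 with 0.05), and 1 Luchuan member, the pseudokinase gene TRIB3 (54 and 70, 0.96, beside a deeper region of 92 and 74 with 0.28), among 107 regions. RPLP1 was the only member among 64 ribosomal protein regions (172 and 43, -1.38), beside a deeper region of 230 and 180 with 0.24, and Wnt, Notch and Hippo genes had none among 118 regions. The median ratios of these 4 lists were 0.03, 0.08, 0.03 and 0.03. From the marker lists came the endothelial EMCN in Duroc (128 and 41, -1.03) and, in Luchuan, the mesenchymal transcription factor gene PRRX1 and the pericyte proteoglycan gene CSPG4 (170 and 226, 1.0). They were 1 of 4 endothelial, 2 of 7 fibroblast and 1 of 20 smooth muscle and pericyte regions (25%, 28.6% and 5%). The endothelial markers did not share the direction of EMCN. ERG and KDR were higher in Luchuan after scaling, PECAM1 and ESAM were nearly level, and the summed reads of the list had a log2 ratio of 0.02. The adipocyte, immune and nerve lists had 5, 4 and 7 tested regions, too few to expect a member at the shares of all tested regions, and had none.

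The candidate genes that the study drew from these same samples are not independent evidence of any direction. Of their 35 tested regions, 3 were Duroc members, at CARNS1, PVALB and the growth factor gene EGF (111 and 27, -1.41), and 5 were Luchuan members, at G0S2, GLUL and PDK4. These are 8.57% and 14.3% of the regions, against 2.44% and 1.08% of all tested regions. Apart from the EGF region, these members also count in the lists above. The median ratio of the 35 regions was -0.02.

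The other members named for their depth were modest in ratio. In Duroc they were ARL6IP5 (668 and 233 reads, -0.92), the actin-binding CNN2 (631 and 229, -0.87) and drebrin, DBN1, with 2 members (613 and 212, -0.94, and 196 and 69, -0.90). In Luchuan the deepest was PRRX1 at chr4:80500229-80501545, with 456 and 625 reads (1.05, 0.87 to 1.22) and a second member of 59 and 71 (0.85). The phosphatase gene PPM1M (484 and 563, 0.81), the helicase gene DDX56 (371 and 429, 0.80), FGL2 (325 and 438, 1.02), the zinc transporter gene SLC30A2 (269 and 412, 1.20) and the potassium channel gene KCNJ3 (268 and 408, 1.20, and 250 and 380, 1.19) came after it. A deeper region at the same end of SLC30A2, with 713 and 625 reads, had 0.40.

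Some members lay beside another. There were 30 Duroc genes of 390 and 18 Luchuan genes of 165 with 2 or more members, and of 46 pairs of neighbouring members within 2 kb of each other 45 had the same direction. The exception was LOC100152306, with 45 and 61 reads (1.02) in one region and 94 and 35 (-0.81) in the next. CRYBB1, a lens crystallin gene, had 3 Duroc members with ratios of -1.41, -1.29 and -1.41. Pairs stood at HCN4, a pacemaker channel gene (-2.07 and -2.02), and at CEACAM16 (-2.04 and -1.04).

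At genes with several regions the ratio changed along the gene. Regions of fewer than 100 reads are left out of the counts and ratios given here. At PDK4 the ratio fell from 2.28 and 2.21 beside the lower end to 1.87 and 1.75 inside the gene, and the deep region on the upper end, with 992 Duroc and 867 Luchuan reads, had 0.40. PFKFB3 had 2.35 at 12.77 kb into the gene and -0.07 to 0.18 between 25.28 and 28.02 kb, and a region at 71.10 kb, with 100 and 33 reads, had -0.98. LDHA and CKM were alike in this respect. The LDHA regions beyond 9 kb from the lower end had ratios from -0.14 to 0.14, and the deep CKM region at 11.07 kb, with 1968 and 1249 reads, had -0.06. At TPM1 14 of 15 regions were below 0 and the median was -0.77, but the deep region at its upper end, with 1473 reads in both breeds, had -0.01. All 19 regions of XIRP2, all 11 of MYOZ3 and all 9 of CKM were below 0, with medians of -0.55, -0.33 and -0.54, and MEF2C had 22 of 31 below 0. On the Luchuan side all 14 regions of FKBP5 were above 0, with a median of 1.15 and a highest value of 2.06 far inside the gene, and so were all 6 of PDK4, 6 of GLUL and 4 of G0S2.

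**Figure D3:**
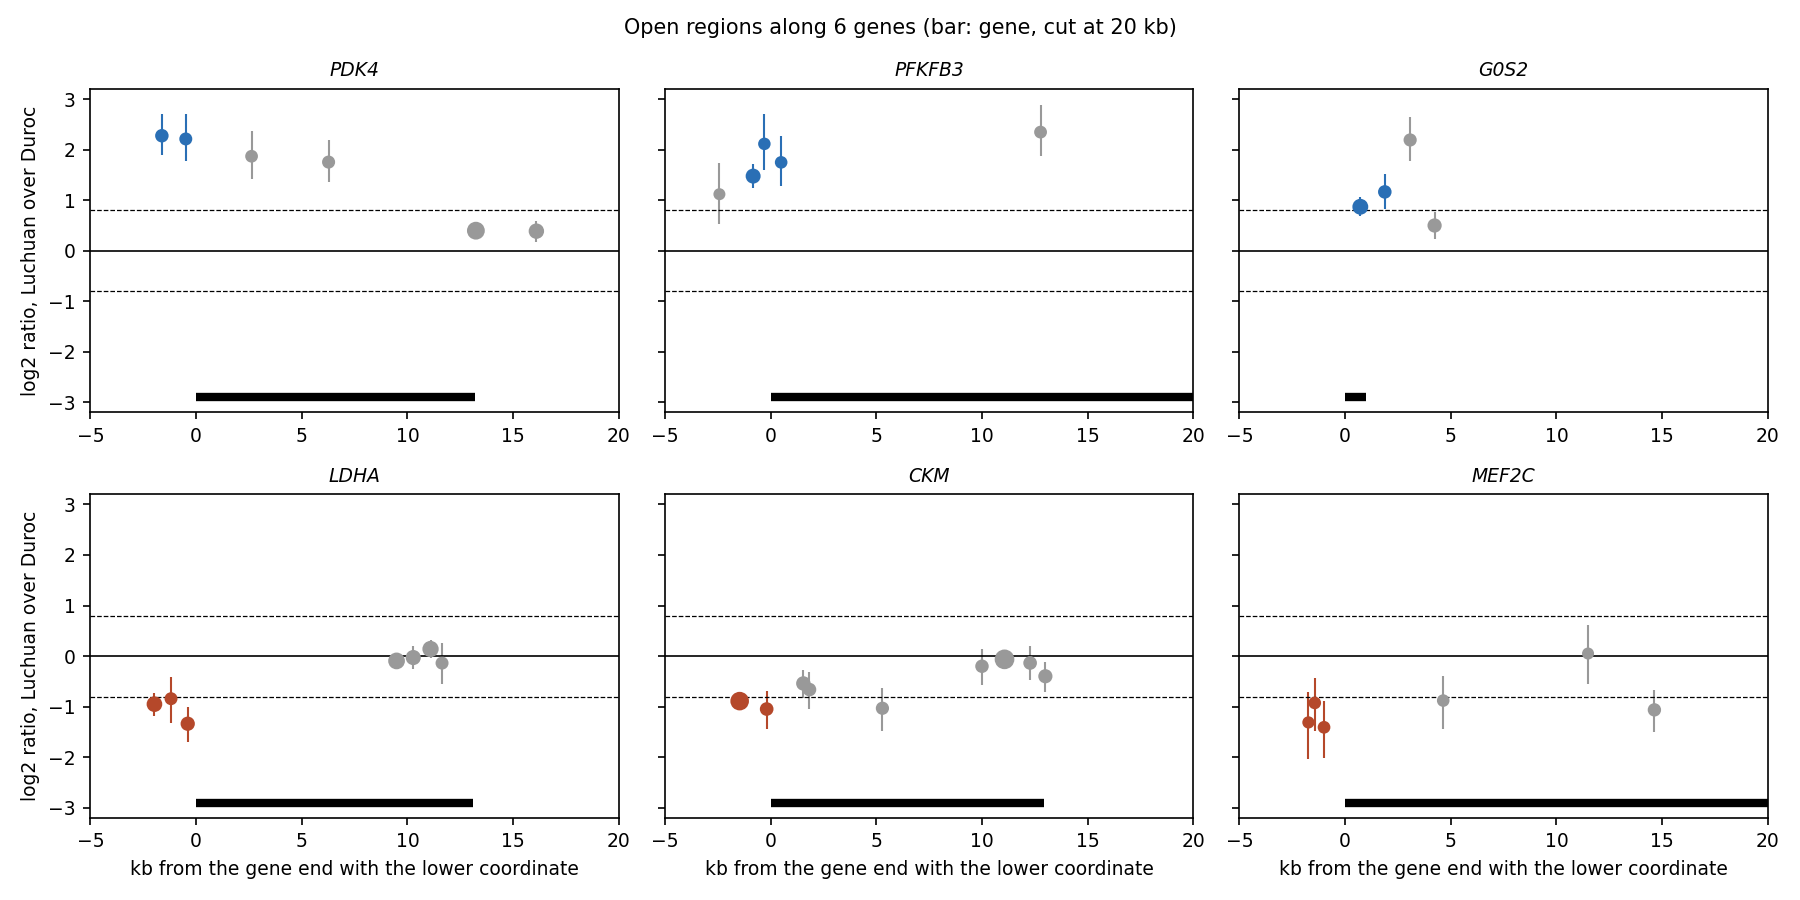
Log2 ratio (y axis) of every open region of at least 100 reads between 5 kb before and 20 kb after the lower end of 6 genes (x axis, kb), with 95% counting intervals as lines, point area growing with the read count, members coloured and the gene as a black bar. The plot covers the lower end, where the members of PDK4, PFKFB3, LDHA, CKM and MEF2C lie, and the deepest regions in the upper part of PDK4, LDHA and CKM lie at 0.40, -0.10 and -0.06.

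The choice set no limit on width, though the longest of overlapping intervals was kept. Distance and depth entered as limits that all tested regions met. Counting error is larger at low counts and can carry a region past a fixed ratio, so depth is not independent of the choice. The members' median width was 379 bases in Duroc and 403 in Luchuan, against 638 over the other tested regions, and their median distance from the gene end was 954 and 605.5 bases, against 309. They were also shallower, with a median of 186 and 170 reads against 591. Only 14.2% of Duroc and 23.5% of Luchuan members had a midpoint within 200 bases of the end, where 40.0% of the other tested regions lay. The midpoint was inside the gene at 51.1% of Duroc members, 68.4% of Luchuan members and 61.2% of the other tested regions. Depth, width and distance moved together with the share of members, and their separate parts were not tested. Regions are no replicates of a breed, so these figures carry no test.

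The share of regions that were Duroc members rose with distance, from 0.927% (0.736% to 1.17%) within 250 bases to 6.12% (5.03% to 7.43%) from 1500 bases on. The Luchuan share was 0.640% (0.484% to 0.845%) in the first interval and 1.50% (1.0% to 2.24%) in the last. By depth, the Duroc share fell from 5.93% at 100 to 149 reads to 0.153% at 800 reads or more, and the Luchuan share from 3.22% to 0.0764%. At each of these 5 depths the shares were larger farther than 2 kb from a gene end, for example 4.14% and 1.46% at 400 to 799 reads against 1.03% and 0.735%. By chromosome the Duroc share ran from 0.938% on chromosome 11 to 3.46% on chromosome 12 and the Luchuan share from 0.397% on chromosome 3 to 3.23% on chromosome 10.

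**Figure D4:**
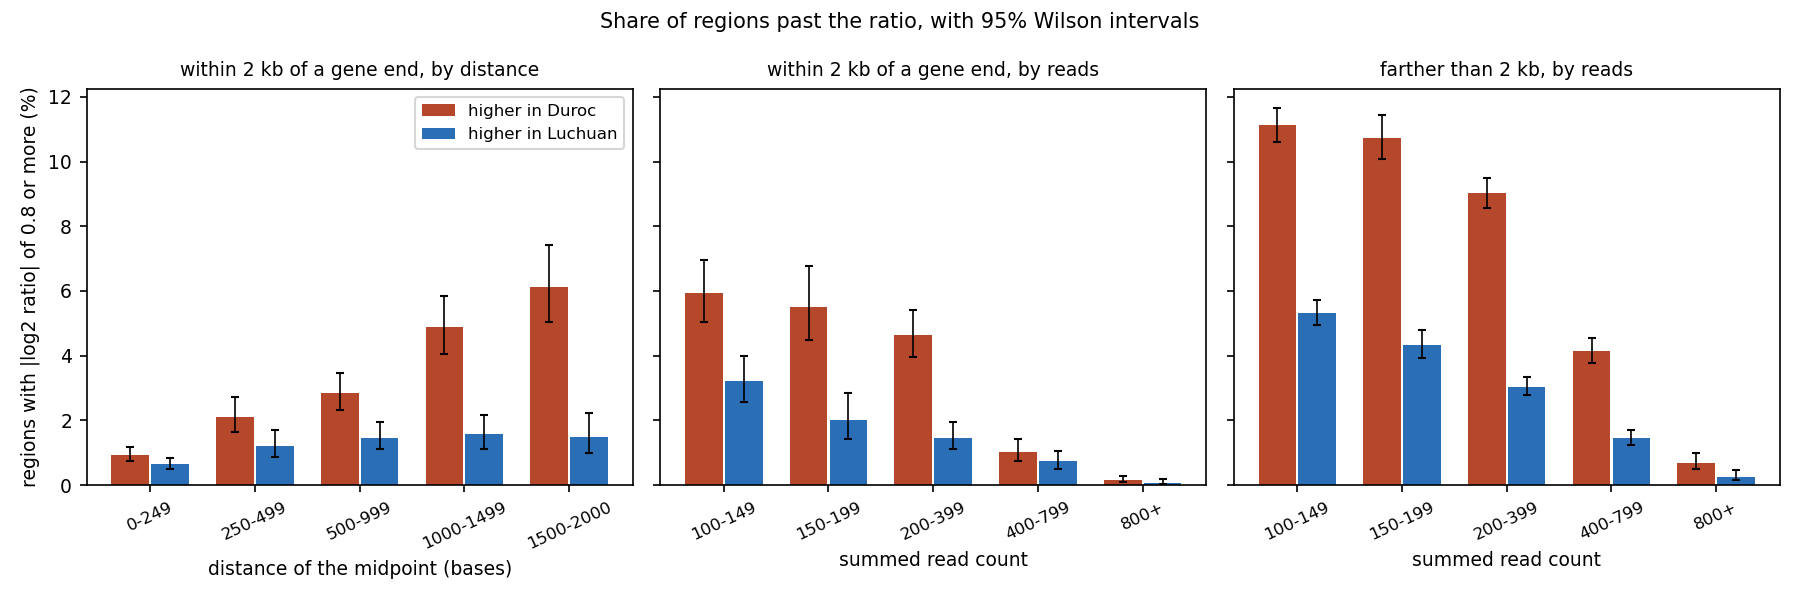
Percent of tested regions with a log2 ratio of 0.8 or more in size (y axis), by distance from the gene end and by summed read count (x axes), for regions near to and farther from gene ends; bars are the breeds and lines 95% Wilson intervals over regions. The Duroc share grows from 0.927% to 6.12% with distance and both shares fall with depth.

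The authors labelled each interval as common to both breeds or found in 1 breed alone. Of the Duroc members, 68.3% were labelled as found in Duroc alone, against 9.98% of all tested regions. Of the Luchuan members, 29.4% were labelled as found in Luchuan alone, against 2.84% of all tested regions. A common label was carried by 87.2% of all tested regions. These labels come from the same reads as the ratio and are a description of the members. In both directions some members carried a common label, 134 in Duroc and 131 in Luchuan, and 1 Luchuan member was labelled as found in Duroc alone.

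Most members stood alone at their gene end. The matching counts over all tested regions were not taken, so this is not shown to set members apart. No other tested region lay within 2 kb of that end for 245 Duroc and 111 Luchuan members, 41 and 20 were the deepest of several, and 137 and 56 sat beside a deeper region. In that last case the Duroc members had a median of 173 reads and a ratio of -0.99, and the deeper regions 668 reads and -0.29, with 76 of 137 within 0.4 of 0 and 22 past 0.8 in the same direction. The Luchuan members had a median of 132 reads and a ratio of 0.95, and the deeper regions 400 reads and 0.59, with 20 of 56 within 0.4 of 0 and 19 past 0.8. The opposite end of the gene had a tested region for 218 Duroc and 63 Luchuan members, with median ratios of -0.03 and 0.14, of which 7 and 3 were past 0.8 in the same direction and none in the opposite.

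**Figure D5:**
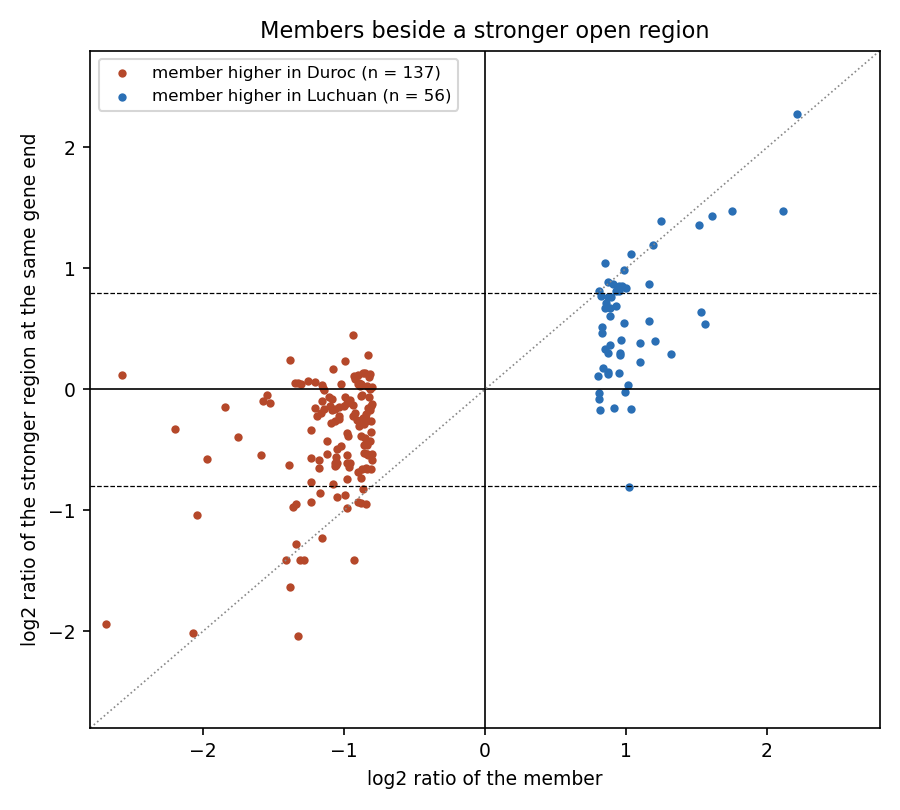
For members beside a deeper region at the same gene end, the log2 ratio of the member (x axis) and of that deeper region (y axis); points are coloured by breed and the dotted line marks equal ratios. Most deeper regions of the 137 Duroc members lie between 0 and -0.8, and 109 of 137 Duroc and 49 of 56 Luchuan pairs share the side of 0.

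The ratios ran from just past the limit to the extremes named above. The median fold was 2.07 for Duroc and 1.94 for Luchuan members, and the fold reached 2 in 238 and 77 of them and 4 in 32 and 9. All 610 counting intervals left out 0. This followed from the limits on ratio and reads by which the members were chosen, and says nothing further about them. The whole interval was past 0.8 in 116 Duroc and 42 Luchuan members. Just inside the limit were RBM27 (83 and 31 reads, -0.801), GBX1 (104 and 39, -0.801) and AGAP1 (175 and 66, -0.802) in Duroc, and DDX56, DIAPH1 (101 and 117, 0.801) and TMEM229A (132 and 153, 0.803) in Luchuan. Just outside were EFEMP2 (374 and 142, -0.7998), PKP3 (88 and 33, -0.797) and SHISA8 (402 and 153, -0.797), and IFITM3 (70 and 81, 0.799), DUSP4 (60 and 69, 0.790) and ANG (67 and 77, 0.789).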

How the data were processed

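ATAC-seq of longissimus dorsi muscle covered 6 samples, 3 boars per breed. Before deposit the reads were trimmed by the authors (Trimmomatic 0.36), mapped by Bowtie2 onto Sscrofa11.1 and passed to MACS2 for peaks. The authors deposited whole-number read counts, 1 column per breed and not scaled for depth, and both columns were read as pooled over boars, since neither names a replicate. Duplicate removal and the transposase shift are not given in the sources used here. The authors also deposited a rescaled log2 fold change, an average signal and a p-value for each interval, which were not used.

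Overlapping intervals were merged and the longest was kept. Starts were read as counted from 0 and are printed from 1. RefSeq gave the ends of 18722 protein-coding genes. Members and lists were chosen with earlier results of these data known. Named genes were, per direction, the 12 with the largest near bound (the end of the interval closer to 0), the 8 deepest, up to 5 with the most members, and those on the lists, without LOC symbols. The 95% Clopper-Pearson bounds of Luchuan's share in a region's reads were moved to the ratio. Without replicates no test was run. Promoter and protein sequences were not analysed here. The selection was tested on simulated data. Tools were pandas 2.3.3 and NumPy 2.4.6 in Python 3.11.15, with SciPy 1.17.1 for intervals and Matplotlib 3.10.9 for plots. Alternatives covered scaling, pseudocount, merging, window, ratio and depth.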

Additional observations from a re-analysis of the deposited data

How the results depend on the processing

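Duroc kept the larger number of members under every alternative run. Its share, 69.3%, was 73.3% with scaling by the median ratio of all regions and 76.5% with scaling by the reads at gene ends, which shift every ratio by -0.03 and -0.05. It was 63.0% in a window of 1 kb, 75.6% at a ratio of 1 or more, 57.9% at 50 reads or more and 73.4% where the near bound had to pass 0.8. The 423 Duroc members became 220 in a window of 1 kb, 856 in one of 5 kb, 238 at a ratio of 1 or more, 196 at 200 reads or more and 116 by the near bound. The 187 Luchuan members became 321 in a window of 5 kb, 77 at a ratio of 1 or more, 459 at 50 reads or more, 79 at 200 reads or more and 42 by the near bound. Of the 95 regions at named genes, 93 stayed past 0.8 with scaling by the median ratio, 90 with a pseudocount of 5 and 95 with another choice of interval.

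No paired analysis was possible because the count columns carry no replicates, so leaving out each boar in turn was not run either. Depth limits the ratios: at 100 reads a ratio near 0.8 has a wide counting interval, and the spread between boars is unknown.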

Other observations

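Some Duroc members outside the lists are given here, chosen after their values were seen and carrying no test. CA3, the carbonic anhydrase of slow fibers, had 635 Duroc and 133 Luchuan reads 1266.5 bases from its end, a ratio of -1.66 (-1.94 to -1.39). The thyroid hormone receptor gene THRB had 2 members, with 223 and 47 reads (-1.63) and 168 and 42 (-1.38). The membrane-shaping gene BIN1 had 228 and 83 (-0.86), the muscle elongation factor gene EEF1A2 had 118 and 39 (-0.98), and APOBEC2 had 86 and 25 (-1.15).

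Some Luchuan members outside the lists were picked in the same way. The procollagen protease gene BMP1 had 44 and 87 reads (1.56) at a site also near the surfactant gene SFTPC, the fibulin gene EFEMP1 had 110 and 183 (1.32), the matrix protease gene MMP14 had 116 and 153 (0.99), and the collagen hydroxylase gene P3H2 had 228 and 319 (1.07). The cytokine gene IL1B had 2 members, with 111 and 155 reads (1.07) and 48 and 60 (0.91). The guanylate-binding protein gene GBP1 had 61 and 77 (0.92).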
